A study of Homo sapiens with 12 samples.

Results

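Transcripts of the inhibitor of DNA binding genes ID1, ID2, ID3 and ID4, of the pathway inhibitors SMAD6, SMAD7 and BAMBI, of the ligands TGFB1 and TGFB2 and of the TGF-beta-induced gene TGFBI were followed in A375 cells during and after exposure to MAPK inhibitors. These 10 genes were picked by symbol from the 44659 genes of the count table, and all 10 were listed. A375 is an established human melanoma line that carries an activating BRAF mutation, and every group was made from it. For control cells (CC) DMSO, the solvent of the drugs, was added for 72 h. Treated cells (TC) were given a mixture of 500 nM vemurafenib, which inhibits mutant BRAF, and 500 nM cobimetinib, which inhibits MEK (together MAPKi), for 72 h. Persister cells (PC) had the same 72 h of MAPKi followed by 2 days of drug-free medium, and recovered cells (RC) by 9 days. CC and TC were collected at day 0, when the drugs were removed. There were 3 libraries per group. The day 0, day 2 and day 9 cells were plated in parallel and split when needed. No DMSO culture was harvested at day 2 or 9, so time in culture and time without drug cannot be told apart in PC and RC.

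Ligands of the TGF-beta family bind pairs of receptor kinases at the cell surface, which phosphorylate SMAD proteins. TGF-beta and activin act mainly through SMAD2 and SMAD3, and bone morphogenetic proteins (BMPs) through SMAD1, SMAD5 and SMAD9, each with SMAD4. The ID genes are classical BMP targets. ID proteins have a helix-loop-helix domain but no DNA-binding basic region, so they capture basic helix-loop-helix (bHLH) factors and keep them off DNA. SMAD6, SMAD7 and BAMBI are themselves targets of the pathway that dampen it. SMAD6 acts mainly on the BMP branch, SMAD7 on both branches, and BAMBI is a receptor-like membrane protein without a kinase domain. In melanoma, both TGF-beta signalling and ID genes have been studied in relation to invasion and drug tolerance.

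RefSeq start regions (GRCh38.p14, 300 bases each) were matched for all 10 members, 12 regions in all since SMAD7 had 3. They were searched on both strands for the SMAD-binding words GGCGCC, GTCTAGAC and CAGACA. Of 35116 start regions of the same length, 19.2% held GGCGCC, 0.202% held GTCTAGAC and 16.9% held CAGACA or its reverse complement TGTCTG. The BAMBI region held GGCGCC 3 times, the TGFBI region held it once, the SMAD6 region held GTCTAGAC once and the TGFB2 region held CAGACA once. None of these words was found in the regions of ID1, ID2, ID3, ID4, SMAD7 or TGFB1. The regions ran from 250 bases before to 50 bases after the RefSeq start site, and sequence beyond them was not searched. The part before the start site is shown for ID1 (chr20:31605039-31605282, plus strand), the ID gene with the highest level under MAPKi, and for the inhibitors SMAD6 (chr15:66701986-66702235, plus strand) and BAMBI (chr10:28677271-28677509, plus strand), which changed in opposite directions. Capitals mark the words searched for, and a match describes the letters only.
ID1: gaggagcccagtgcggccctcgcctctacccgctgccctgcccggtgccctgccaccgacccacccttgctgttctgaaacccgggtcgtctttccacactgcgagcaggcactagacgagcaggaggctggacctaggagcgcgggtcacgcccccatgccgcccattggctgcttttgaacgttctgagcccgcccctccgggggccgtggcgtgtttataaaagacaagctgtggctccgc
SMAD6: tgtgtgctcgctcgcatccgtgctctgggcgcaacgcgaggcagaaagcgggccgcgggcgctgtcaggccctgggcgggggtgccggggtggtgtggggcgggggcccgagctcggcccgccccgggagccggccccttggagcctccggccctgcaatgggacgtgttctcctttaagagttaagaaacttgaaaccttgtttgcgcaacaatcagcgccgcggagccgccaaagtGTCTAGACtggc
BAMBI: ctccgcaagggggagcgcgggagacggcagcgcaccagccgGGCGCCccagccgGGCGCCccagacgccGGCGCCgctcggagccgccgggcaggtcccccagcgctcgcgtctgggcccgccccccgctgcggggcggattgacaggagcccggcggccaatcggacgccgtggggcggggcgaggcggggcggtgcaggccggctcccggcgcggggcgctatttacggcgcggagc

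Levels are given as CPM, the depth-scaled read count, and group levels as mean ± SD. Total counts per library ran from 37773389 to 55567097, at which 3 counts equal 0.0534 to 0.0785 CPM. The tests covered 15916 genes whose normalized counts averaged 10 or more. Calls are those with an adjusted p (Benjamini-Hochberg) under 0.05 in edgeR's quasi-likelihood test, and calls beyond 1.5-fold come from edgeR's glmTreat. All adjusted p-values are from these 2 edgeR tests over all genes tested, except where DESeq2 is named. The median log2 fold change over all genes tested was between -0.038 and 0.015 in the 5 comparisons. Of 7 genes that report MAPK output, among them SPRY4, DUSP6 and ETV4, 7 were lower in TC and in PC. Their summed level was 1490 to 2750 CPM in CC, 130 to 150 in TC, 137 to 149 in PC and 1640 to 1710 in RC. The 8 melanocyte lineage markers, such as SOX10, MITF and PMEL, were above 3 counts in every group, with sums of 1830 to 2010 CPM in CC, 7220 to 10400 in TC, 3650 to 5260 in PC and 1630 to 1700 in RC. Most of the higher sum in TC was DCT, with a mean of 407 CPM in CC, 6452 in TC and 2601 in PC. In TC, 5 of the 8 were called higher and 1, S100B, lower, and in PC 6 were higher and 1, MITF, lower, so they did not move as a set. The sum of 10 markers of other cell types was 131 to 179 CPM in CC, 722 to 1070 in TC, 637 to 779 in PC and 122 to 135 in RC. Most of it was CD68, a lysosomal protein used as a macrophage marker, while CD3E, PECAM1, KRT5 and CDH5 had at most 3 counts in each library. KRT14, a basal keratin, took the same course as the higher members at a low level, with 0.0151 CPM in CC, 0.396 in TC, 2.29 in PC and 0.0164 in RC. Against 3 counts per CC library it was at least 5.79-fold higher in TC and at least 33.5-fold higher in PC. The leukocyte marker PTPRC and the endothelial marker VWF were called lower in TC (log2 fold changes -3.55 and -0.99) and in PC (-1.96 and -1.25). Mitochondrial genes took 1.31% to 2.15% of the counts in CC, 2.73% to 3.26% in TC, 2.04% to 2.59% in PC and 1.26% to 1.32% in RC. The part of the CD68 and KRT14 levels, of DCT and of the mitochondrial share in the results below was not tested.

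TC was set against CC to see which of these transcripts changed during MAPKi, and PC against CC to see whether they differed from control 2 days after the drugs were removed. ID1, ID2, ID4, SMAD6, TGFB1 and TGFBI were higher than in CC in both, and SMAD7 and BAMBI were lower in both. ID3 and TGFB2 had too few counts to be tested. Of the 8 tested members, 6 were higher and 2 lower in TC, where 33.2% and 34.7% of all genes tested were higher and lower. In PC, 6 were higher and 2 lower, against 33.2% and 35.9% of all genes. Beyond 1.5-fold, 6 were higher and 1 (BAMBI) was lower in TC, against 16.1% and 19.3% of all genes, and 6 were higher and 0 lower in PC, against 17.2% and 19.9%. The median log2 fold change of the 8 was 1.73 in TC and 1.88 in PC. TC and PC were compared with the same CC libraries.

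**Figure D1:**
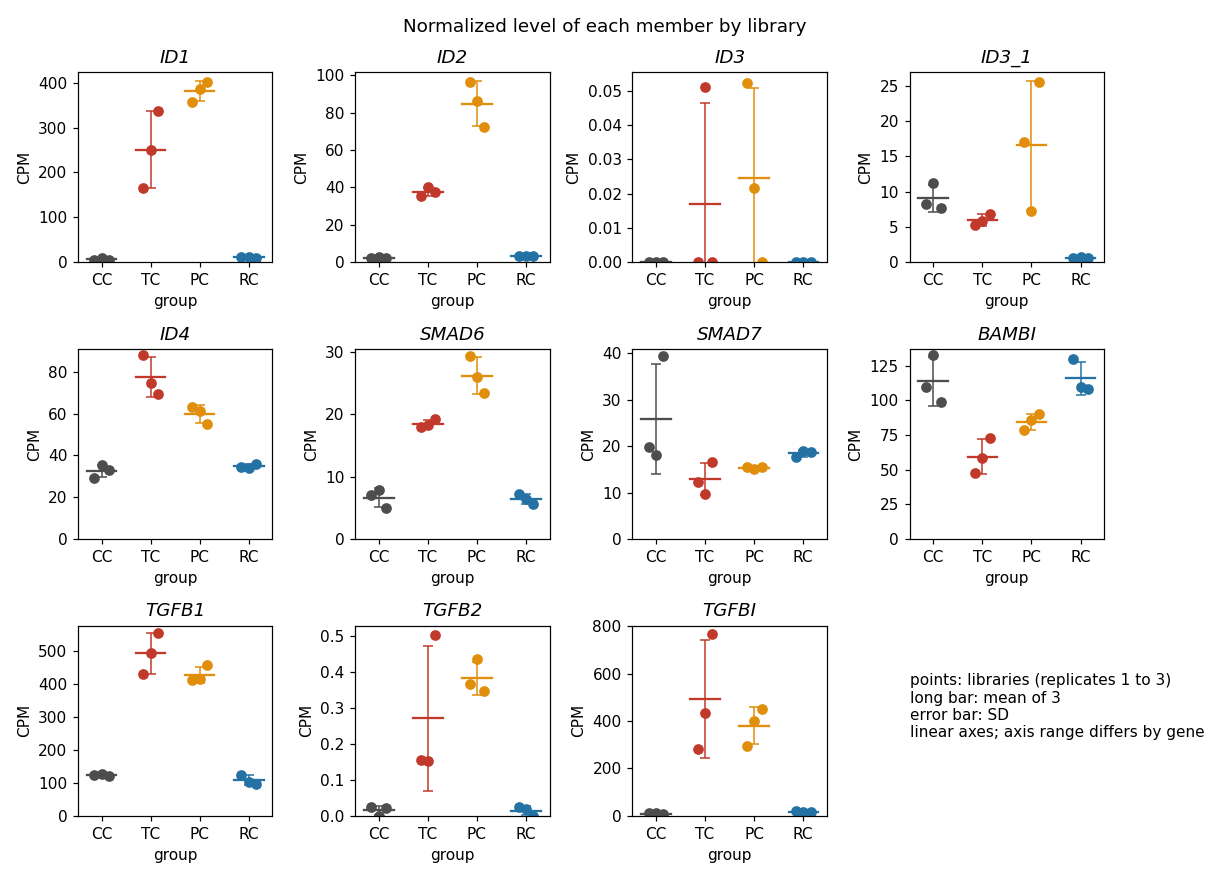
Level of each member in CPM (linear axis from 0, with a range of its own for each gene) in the 3 libraries of CC, TC, PC and RC. Points are libraries, long bars are means and error bars are SD. ID1, ID2, ID4, SMAD6, TGFB1 and TGFBI were higher in TC and PC than in CC and RC, with the smallest difference for ID4, while the ID3_1 entry was lowest in RC.

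ID1 (chromosome 20, 31605283 to 31606515, plus strand, GRCh38), a direct target of BMP-activated SMADs in many cells, had 5.36, 10.3 and 3.96 CPM in CC replicates 1 to 3. It had 164.8, 250.3 and 336.8 CPM in TC and 358.1, 385.8 and 401.9 CPM in PC. No TC library overlapped CC, and every PC library was above every TC library. ID1 rose 38.4-fold in TC (log2 fold change 5.26, SE 0.34, adjusted p 4.5e-08) and 58.5-fold in PC (log2 fold change 5.87, SE 0.35, adjusted p 2.1e-08). These changes ranked 113 of 15916 from the highest in TC and 103 in PC. In bulk libraries, fewer cells with a transcript and less of it per cell cannot be told apart, for ID1 as for every member.

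ID2 (chromosome 2, 8678845 to 8684461, plus strand), which also opposes bHLH factors of lineage commitment, had 2.02, 2.55 and 2.46 CPM in CC. It had 35.4, 39.99 and 37.3 CPM in TC and 96.4, 85.9 and 72.0 CPM in PC. The groups did not overlap, and PC was the highest. ID2 rose 16.0-fold in TC (log2 fold change 4.00, SE 0.12, adjusted p 1.7e-10) and 36.0-fold in PC (log2 fold change 5.17, SE 0.13, adjusted p 2.9e-11). Of the ID2 exon bases, 6.55% overlap the opposite-strand gene ID2-AS1, and the strand setting of the counting is not given in the sources used here. ID2-AS1 itself had a mean of 0.471 CPM in CC, 1.25 in TC and 1.86 in PC.

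ID4 (chromosome 6, 19837370 to 19842197, plus strand), an ID protein that can act against the other ID proteins, had 29.2, 35.2 and 33.0 CPM in CC, 88.1, 74.8 and 69.2 in TC and 63.0, 61.4 and 54.8 in PC. All TC and PC libraries were above CC. ID4 rose 2.38-fold in TC (log2 fold change 1.25, SE 0.10, adjusted p 2.4e-07) and 1.84-fold in PC (log2 fold change 0.88, SE 0.10, adjusted p 5.1e-06).

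ID3 (chromosome 1, 23557926 to 23559501, minus strand) had 5 counts over all 12 libraries, with at most 0.0523 CPM in any of them, so every group was at or under 3 counts per library and no fold change is given. A separate entry, ID3_1, held 4175 counts. Which locus such numbered entries stand for is not given in the sources used here, so ID3_1 was kept apart. ID3_1 had 8.19, 11.2 and 7.75 CPM in CC, 5.23, 5.80 and 6.88 in TC and 17.1, 7.21 and 25.5 in PC. The TC libraries lay just below CC (log2 fold change -0.60, SE 0.34, adjusted p 0.138), and passed the test when only TC and CC were fitted (adjusted p 0.0281) or without PC replicate 2 (adjusted p 0.0186). The PC libraries were spread on both sides of the CC range, and their log2 fold change, 0.87 (SE 0.34, adjusted p 0.0358), became 0.43 (adjusted p 0.238) without PC replicate 3. On chromosome 1, 214 kb from ID3, HNRNPR likewise had 28 counts under its own symbol and 11136 in HNRNPR_1. In CC, HNRNPR_1 ranged from 5.26 to 68.5 CPM, so a numbered entry of this region can vary widely within a group.

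SMAD6 (chromosome 15, 66702236 to 66782849, plus strand), the inhibitory SMAD of the BMP branch, had 7.13, 7.88 and 4.91 CPM in CC, 17.96, 18.2 and 19.2 in TC and 29.3, 25.9 and 23.4 in PC. The 3 groups did not overlap. SMAD6 rose 2.78-fold in TC (log2 fold change 1.48, SE 0.16, adjusted p 4.6e-06) and 3.95-fold in PC (log2 fold change 1.98, SE 0.16, adjusted p 3.4e-07).

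SMAD7 (chromosome 18, 48919853 to 48950965, minus strand), which recruits ubiquitin ligases to the TGF-beta receptor, had 19.8, 18.1 and 39.5 CPM in CC, 12.4, 9.79 and 16.5 in TC and 15.5, 15.1 and 15.6 in PC. Its CC mean rested on replicate 3, although all TC and PC libraries were below CC. SMAD7 fell by 1.00 on the log2 scale in TC (SE 0.26, adjusted p 0.0045) and by 0.75 in PC (SE 0.26, adjusted p 0.0215). Without CC replicate 3 the log2 fold change was -0.55 in TC and -0.29 in PC, and only the call in TC was kept (adjusted p in PC 0.13). The call in PC was also lost without PC replicate 1 or 2 (adjusted p 0.0513 and 0.0569). Beyond 1.5-fold, SMAD7 was not called in TC (glmTreat adjusted p 0.0582), but it was with library totals, with a replicate block and without CC replicate 1, CC replicate 2 or TC replicate 3 (adjusted p 0.0159 to 0.0498).

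BAMBI (chromosome 10, 28677510 to 28682932, plus strand) had 109.8, 133 and 98.7 CPM in CC, 47.7, 58.1 and 72.6 in TC and 78.6, 85.7 and 89.9 in PC. TC was the lowest group, PC lay between TC and CC, and the 3 groups did not overlap. BAMBI fell by 0.94 on the log2 scale in TC (SE 0.15, adjusted p 0.00011) and by 0.43 in PC (SE 0.15, adjusted p 0.0203). The call in PC was lost without CC replicate 2 or PC replicate 1 (adjusted p 0.0904 and 0.0737). Its call beyond 1.5-fold in TC (glmTreat adjusted p 0.0137) was lost without CC replicate 2 or TC replicate 1 (adjusted p 0.0653 in both). It was also lost in DESeq2 with a 1.5-fold threshold (DESeq2 adjusted p 0.0782).

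**Figure D2:**
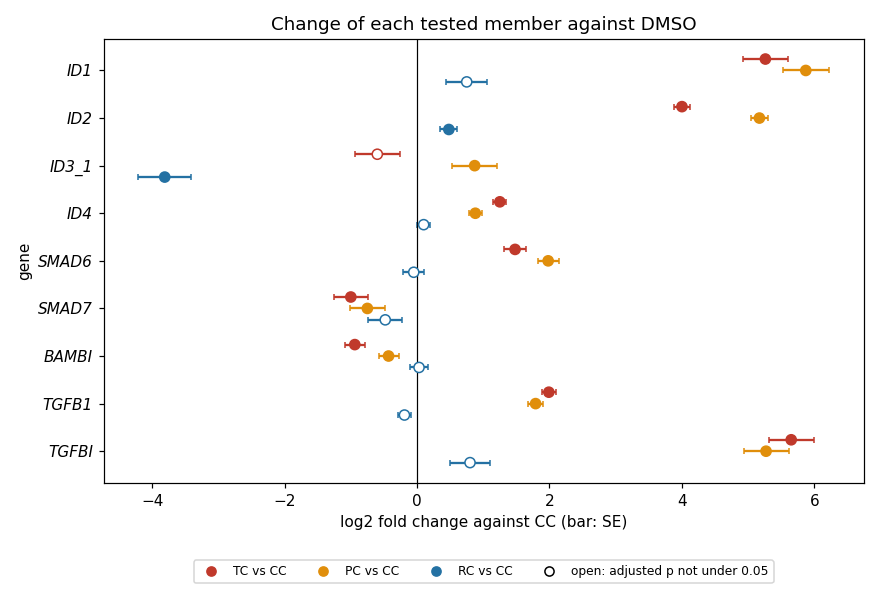
Log2 fold change against CC of the 8 tested members and of ID3_1 in TC, PC and RC. Bars are SE, and open points are those with an adjusted p that was not under 0.05. ID1, ID2 and TGFBI had values of 4.00 to 5.87 in TC and PC, while SMAD7 and BAMBI lay below 0 in both.

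TGFB1 (chromosome 19, 41301587 to 41353922, minus strand), the main TGF-beta ligand, had 122.9, 127.6 and 121.4 CPM in CC, 430.8, 494 and 554.1 in TC and 412.6, 414.5 and 457 in PC. TC and PC overlapped each other and lay far above CC. TGFB1 rose 3.98-fold in TC (log2 fold change 1.99, SE 0.11, adjusted p 9.3e-09) and 3.45-fold in PC (log2 fold change 1.79, SE 0.11, adjusted p 2.1e-08). HNRNPUL1, on the opposite strand, overlaps 6.59% of its exon bases and had means of 347 CPM in CC, 336 in TC and 374.5 in PC.

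TGFB2 (chromosome 1, 218345336 to 218444619, plus strand), a second ligand of the same receptors, was near the detection limit, with 0.0247, 0 and 0.0212 CPM in CC, 0.156, 0.153 and 0.504 in TC and 0.366, 0.435 and 0.347 in PC. All TC and PC libraries were above CC. Against 3 counts per CC library, it was at least 3.96-fold higher in TC and at least 5.59-fold higher in PC. The bound in TC rested on replicate 3 and was 2.26-fold without it. When genes with a summed count of at least 2 were tested, the edgeR log2 fold change was 3.98 in TC (SE 0.83, adjusted p 0.000852) and 4.43 in PC (SE 0.82, adjusted p 0.000266), values that depend on the prior count. The genes TGFB2-AS1 and TGFB2-OT1 overlap 34.2% of the TGFB2 exon bases.

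TGFBI (chromosome 5, 136028988 to 136063818, plus strand), a secreted matrix protein named for its induction by TGF-beta, had 10.7, 10.1 and 8.72 CPM in CC. It had 281.4, 432.2 and 765.1 CPM in TC and 294.4, 398.3 and 448.8 CPM in PC. TC and PC overlapped each other, with the widest spread in TC. TGFBI rose 50.1-fold in TC (log2 fold change 5.65, SE 0.34, adjusted p 2.8e-08) and 38.6-fold in PC (log2 fold change 5.27, SE 0.34, adjusted p 4.3e-08). Its change ranked 92 of 15916 from the highest in TC and 137 in PC. In TC, replicate 3 held the highest level of 7 of the 9 members other than ID3. They were ID1, SMAD6, SMAD7, BAMBI, TGFB1, TGFB2 and TGFBI, and ID3_1 was also highest there. In the other groups, CC replicate 2 and RC replicate 1 each held the highest level of 6 of the 9, and PC replicate 3 of 5. The share of all genes tested that were highest in these libraries was not counted.

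PC was compared directly with TC to see which members moved after the drugs were removed. Of the 8 tested members, 3 were higher and 1 was lower in PC than in TC, where 12.2% and 12.5% of all genes were higher and lower. ID2, already above CC in TC, was higher still in PC by a log2 difference of 1.17 (SE 0.10, adjusted p 1.2e-05), and SMAD6 by 0.50 (SE 0.15, adjusted p 0.0321). BAMBI, which was below CC in TC, came part of the way back, with a log2 difference of 0.51 (SE 0.15, adjusted p 0.0246). ID4 fell by 0.37 towards CC (SE 0.10, adjusted p 0.014). The call of SMAD6 was lost when any of 5 of the 6 TC and PC libraries was left out, that of BAMBI with any of 4, and that of ID4 without TC replicate 1 or PC replicate 3. ID1 had a log2 difference of 0.61 (95% interval 0.01 to 1.20, adjusted p 0.132), TGFB1 one of -0.20 (-0.43 to 0.02), TGFBI one of -0.37 (-0.97 to 0.23) and SMAD7 one of 0.25 (-0.31 to 0.82), and none of these passed the test. ID1 passed it without CC replicate 2 (adjusted p 0.0425) or TC replicate 3 (adjusted p 0.0441). ID3_1 was higher in PC by 1.47 (SE 0.34, adjusted p 0.00843). HNRNPR_1, named for a gene 214 kb from ID3, also had higher levels in PC, 15.9 to 60.9 CPM against 4.46 to 8.92 in TC. Of the other nearby entries, E2F2_1 also had a higher mean in PC (0.0946 CPM) than in TC (0.0467). So did ZNF436_1 (0.189 against 0.163) and ZNF436-AS1_1 (0.0449 against 0.00852), all at low levels. The means of ASAP3_1 and TCEA3_1 were lower in PC than in TC. For ASAP3_1 the median was higher in PC (1.62 CPM) than in TC (0.881), where 1 library had 3.49 CPM. Whether the change of ID3_1 is shared by its region was not tested.

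RC was compared with PC and with CC to see whether the members had returned to control levels 9 days after MAPKi. From PC to RC, 6 of the 8 members fell and 1 rose, where 34.2% and 35.7% of all genes were lower and higher. ID1 fell 34.8-fold to 11.6, 11.4 and 10.0 CPM (adjusted p 4.2e-08) and ID2 25.8-fold to 3.20, 3.29 and 3.33 CPM (adjusted p 7.1e-11). TGFBI fell 22.3-fold to 18.98, 16.3 and 16.0 CPM (adjusted p 1.1e-07). SMAD6 fell 4.07-fold to 7.16, 6.48 and 5.65 CPM (adjusted p 2.6e-07), TGFB1 3.94-fold to 124.9, 103.4 and 97.9 CPM (adjusted p 9.1e-09) and ID4 1.71-fold to 34.3, 34.2 and 36.0 CPM (adjusted p 1.4e-05). TGFB2, with 0.0246, 0.0178 and 0 CPM in RC, was at least 6.24-fold lower than in PC. BAMBI rose 1.37-fold to 129.6, 109.9 and 108.5 CPM (adjusted p 0.0147), a call lost without PC replicate 1 or RC replicate 1 (adjusted p 0.0562 and 0.0625). SMAD7 had 17.6, 19.1 and 18.8 CPM in RC and did not pass the test against PC (log2 difference 0.26, 95% interval -0.30 to 0.83).

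Against CC, ID2 was the 1 member of 8 called higher in RC and 0 were called lower, where 18.2% and 19.1% of all genes were higher and lower. Beyond 1.5-fold, 0 members were higher and 0 lower, against 1.35% and 2.52% of all genes. ID2 was 1.39-fold higher in RC (log2 fold change 0.48, SE 0.13, adjusted p 0.0114), with each RC library above each CC library, and the call was lost when only CC and RC were fitted (adjusted p 0.0687). TGFBI did not pass the test at 1.74-fold (log2 fold change 0.80, SE 0.30, adjusted p 0.0579), although every RC library was above every CC library, and it was called in 6 of 19 alternative analyses. ID1 did not pass it at 1.68-fold (95% interval of the log2 fold change 0.07 to 1.43, adjusted p 0.0792). It was called when CC replicate 2 was left out, at a log2 fold change of 1.25 (adjusted p 0.00519), or when TC replicate 1 was (adjusted p 0.0463). The intervals of the log2 difference from CC were -0.11 to 0.31 for ID4, -0.39 to 0.30 for SMAD6, -1.04 to 0.08 for SMAD7, -0.29 to 0.34 for BAMBI and -0.41 to 0.04 for TGFB1.

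The ID3_1 entry differed from this pattern. It had 0.591, 0.748 and 0.586 CPM in RC, all below the other 3 groups. It was 14.0-fold lower than in CC (log2 fold change -3.81, SE 0.40, adjusted p 4.8e-05), rank 23 of 15916 from the lowest, and 25.6-fold lower than in PC (log2 fold change -4.68, SE 0.41, adjusted p 6.1e-07). Adding its counts to ID3 gave the same log2 fold change of -3.81 in RC. Of the numbered entries near it, E2F2_1 changed by -0.26 (adjusted p 0.656), HNRNPR_1 by -0.68 (adjusted p 0.557), ASAP3_1 by -2.03 (adjusted p 0.0917) and TCEA3_1 by 1.13 (adjusted p 0.523) between CC and RC on the log2 scale. These neighbours were chosen after their values were seen.

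To compare the ID genes with each other, levels were divided by exon length in kilobases (RPKM scale), with the ID3 length used for ID3_1. All annotated exons of a gene were merged, which gave 1233 bases for ID1, 2213 for ID2, 1496 for ID3 and 3873 for ID4. The lengths of the expressed transcripts were not determined, so the shares of different genes depend on this choice. The sum of the scaled ID levels was 20.8 ± 4.58 in CC, 244 ± 68.3 in TC, 374.6 ± 14.2 in PC and 19.8 ± 0.431 in RC (SD, n = 3). ID4 held the largest share in CC, 41.1% on average, followed by ID3_1 with 29.1%, ID1 with 24.5% and ID2 with 5.19%. In TC and PC, ID1 held 82.2% and 82.7%, and ID4 8.85% and 4.13%. In RC, ID4 held 45.4% and ID1 45.0%, with 2.16% for ID3_1. The ID1 and ID4 shares overlapped between libraries in RC, and the order of ID4, ID3_1 and ID1 in CC was not the same in each library. Without ID3_1, ID1 held 34.6% ± 10.0 in CC, 83.6% ± 5.64 in TC, 85.2% ± 2.27 in PC and 46.0% ± 2.62 in RC. The ID2 share was the smallest of these 3 in CC and RC, and exceeded the ID4 share in PC in every library.

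**Figure D3:**
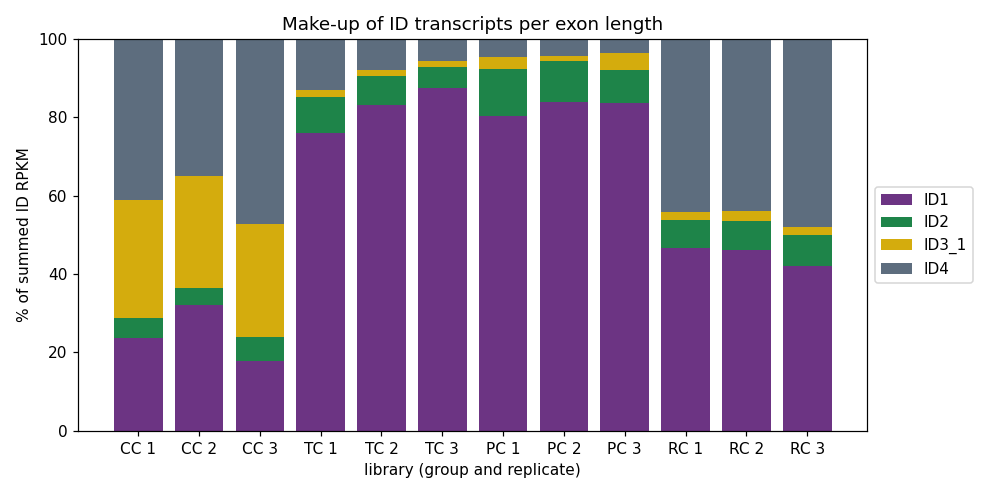
Share of each ID gene in the summed length-scaled ID level (percent, stacked to 100) in the 12 libraries, named by group and replicate. ID1 held 76.0% to 87.4% in TC and 80.3% to 84.0% in PC, against 17.8% to 32.0% in CC, and the ID3_1 share was 28.7% to 30.0% in CC and at most 2.49% in RC.

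The genes with the most similar course to each ID gene were found as those with the smallest root mean square (RMS) difference of centred log2 CPM over the 12 libraries, among 13194 genes. For ID1 they were LCTL (0.34), DLX5 (0.38) and PKDCC (0.39), and for ID2 they were MYLK (0.26), FOSL2 (0.27) and MMP15 (0.28). ID4 was closest to FTH1 (0.08), FBXW5 (0.10) and C1orf216 (0.10). For ID3_1 the nearest genes, CDC42EP1, DLX4 and IFITM1, were all at 0.80. All of these values are RMS differences on the log2 scale, and the 12 libraries share 4 groups.

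Beyond the members, 92 other genes of the pathway and of the bHLH factors were listed by role, and 69 were tested. In TC, 27 were higher and 17 lower, with a median log2 fold change of 0.03, and in PC 32 were higher and 22 lower, with a median of 0.12. In RC, 6 were higher and 18 lower, with a median of -0.11. These shares are read against the percentages of all genes given above.

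Of 19 listed ligands, 11 were tested, of which 4 were higher and 3 lower in TC, 5 higher and 4 lower in PC, and 0 higher and 3 lower in RC. INHBA, which encodes the activin A subunit, had 5.54 ± 2.06 CPM in CC, 34.1 ± 0.394 in TC, 76.2 ± 5.28 in PC and 4.42 ± 0.784 in RC. It rose 6.15-fold in TC and 13.7-fold in PC (adjusted p 3.2e-07 and 1.7e-08). GDF15, a stress-induced distant family member, had 1140 ± 407 CPM in CC, 20.6 ± 4.37 in TC, 4.54 ± 2.08 in PC and 254 ± 25.8 in RC, and was lower than in CC in all 3 groups (log2 fold changes -5.79, -7.99 and -2.17). GDF11 was lower in RC by a small margin (log2 fold change -0.32, SE 0.07).

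Of 14 receptors, 13 were tested, with 5 higher and 4 lower in TC, 5 higher and 5 lower in PC, and 1 higher and 3 lower in RC. TGFBR2, the ligand-binding TGF-beta receptor, had 39.8 ± 4.58 CPM in CC, 168 ± 18.8 in TC, 157 ± 25.9 in PC and 36.9 ± 2.02 in RC, and rose 4.21-fold in TC and 3.94-fold in PC (adjusted p 3.5e-08 and 4.9e-08). ACVR1C, a type I receptor for activin and nodal, fell 3.51-fold in TC and 6.06-fold in PC. In RC, TGFBR1 was 1.41-fold higher than in CC, and ACVRL1, an endothelial type I receptor that was below 2 CPM here, was 3.73-fold lower.

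All 6 receptor-regulated and common SMADs were tested, with 3 higher and 1 lower in TC and in PC, and 0 higher and 1 lower in RC. SMAD3, a carrier of TGF-beta signals, was the lower gene each time, with 97.9 ± 11.5 CPM in CC, 50.5 ± 2.28 in TC, 43.2 ± 2.08 in PC and 73.9 ± 2.35 in RC (adjusted p 4.8e-07, 7.3e-08 and 0.002). Of the BMP-branch SMADs, SMAD1 rose 1.63-fold in TC and SMAD9 2.14-fold in PC.

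Of 19 extracellular antagonists and latency proteins, 11 were tested, with 6 higher and 4 lower in TC and in PC, and 1 higher and 7 lower in RC. FSTL3, which binds activin, had 7.91 ± 0.887 CPM in CC, 238 ± 65.2 in TC, 392.3 ± 30.8 in PC and 5.62 ± 0.626 in RC, and rose 30.1-fold and 49.7-fold in TC and PC (adjusted p 8.3e-10 and 3.6e-10). CHRDL1, a BMP antagonist, went the other way, with 17.7 ± 2.42 CPM in CC, 0.400 ± 0.128 in TC, 0.409 ± 0.144 in PC and 7.40 ± 0.876 in RC. Its log2 fold changes were -5.45 in TC and -5.44 in PC (adjusted p 5.8e-09 and 6.0e-09). In RC, FST, another activin antagonist, was 1.48-fold higher than in CC and CHRD 3.22-fold lower, the latter at under 0.2 CPM in CC and RC.

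All 10 other intracellular inhibitors were tested, with 5 higher and 1 lower in TC and in PC, and 0 higher and 1 lower in RC. PMEPA1, which sequesters SMAD2 and SMAD3, had 15 ± 2.50 CPM in CC, 1149 ± 216 in TC, 909.5 ± 77.7 in PC and 16.3 ± 2.95 in RC, and rose 76.6-fold in TC and 60.6-fold in PC (adjusted p 1.7e-10 and 2.0e-10). NEDD4L, a ubiquitin ligase that targets activated SMADs, was the lower gene each time, with log2 fold changes of -1.64 in TC, -2.21 in PC and -0.45 in RC.

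Of 11 further TGF-beta targets, 9 were tested, with 3 higher and 0 lower in TC, 5 higher and 1 lower in PC, and 2 higher and 3 lower in RC. THBS1, a matrix protein that can activate latent TGF-beta, had 160.7 ± 8.80 CPM in CC, 1116 ± 175 in TC, 2071 ± 197 in PC and 305.8 ± 25.9 in RC, and was higher than in CC in all 3 groups (log2 fold changes 2.80, 3.69 and 0.93). CCN2, a matricellular protein, rose 1.65-fold in TC. JUNB, an AP-1 subunit, was lower in PC (log2 fold change -0.76), and the cell cycle inhibitor CDKN1A was lower in RC (log2 fold change -0.93).

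Of 13 bHLH factors listed with the ID proteins, 9 were tested, with 1 higher and 4 lower in TC, 3 higher and 6 lower in PC, and 2 higher and 0 lower in RC. TCF4, an E protein that ID proteins bind, had 7.64 ± 0.322 CPM in CC, 13.5 ± 0.420 in TC, 29.0 ± 2.28 in PC and 11.5 ± 0.897 in RC, and was higher than in CC in all 3 groups (adjusted p 4.6e-06, 3.3e-09 and 4e-04). OLIG2, a neural bHLH factor, fell 3.47-fold in TC and 4.66-fold in PC. HEY1, a Notch-responsive repressor, was 1.56-fold higher in RC.

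**Figure D4:**
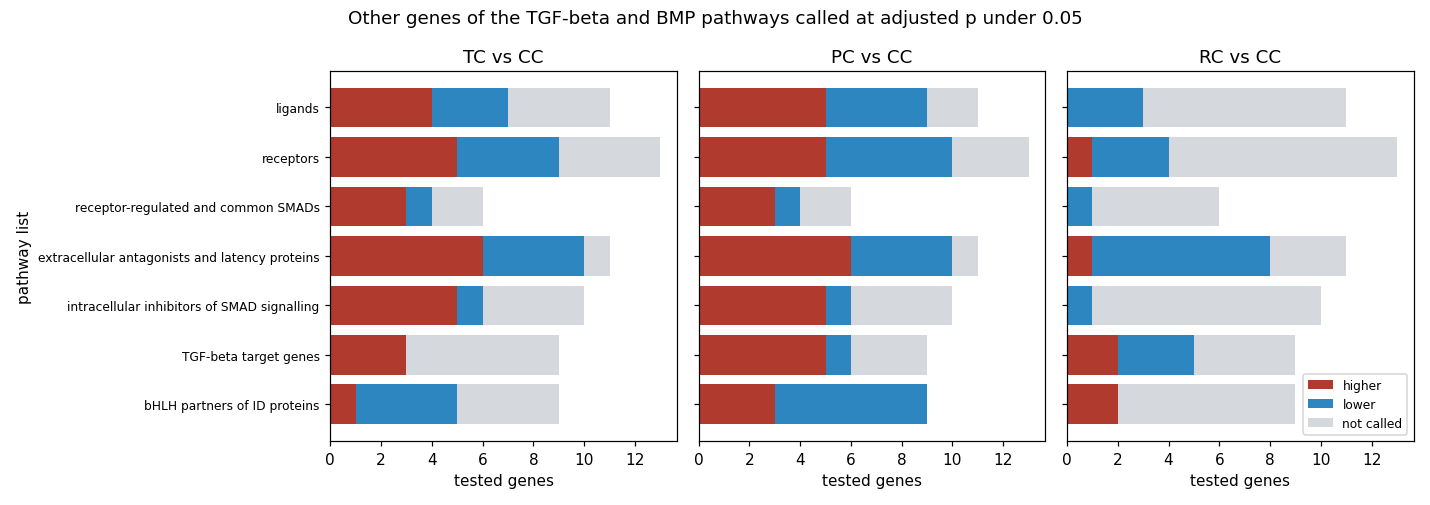
Number of tested genes (x axis) in each of the 7 lists (y axis) that were higher, lower or not called against CC in TC, PC and RC, at an adjusted p under 0.05. The members are not included. In RC, 45 of the 69 genes were not called, and the extracellular antagonists held 7 of the 18 lower genes.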

How the data were processed

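RNA was sequenced in 12 libraries of A375 cells. The labels name cytoplasmic RNA and the study's methods total RNA, with ribosomal RNA depleted. The authors trimmed reads with fastp 0.20.1, aligned them to GRCh38.p13 with HISAT2 2.2.1, counted them on exons with HTSeq 0.13.5 and deposited raw counts per gene, without normalization. The strand setting and the treatment of multi-mapped reads are not given in the sources used here, so reads shared by overlapping genes or copies may be missing or misplaced. There were 5088 numbered entries, kept as listed.

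From these counts, TMM factors (0.965 to 1.02), CPM and a quasi-likelihood fit of all 12 libraries, with the 4 groups as its terms, were computed with edgeR 4.0.16 (R 4.3.3). Of its residual degrees of freedom there were 8, and the common coefficient of biological variation was 0.182. Tests were two-sided, in 5 comparisons. Standard errors and intervals were derived from the F statistic. Floors of 3 counts cover counting error only. The labels do not say whether replicates came from separate cultures, so p-values measure the spread between these libraries, which may be technical. No pair of libraries agreed within sampling noise. The code of the fit was run on data simulated with the same spread for all genes, which does not test the calls made here. Exon lengths and coordinates came from GENCODE v44 and start regions from RefSeq, matched by symbol.

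The members and lists were chosen with earlier results of these data known. Besides the members and their numbered copies, the genes named are, per list and group, the called genes with the highest and lowest log2 fold change against CC among those with a group mean of at least 1 CPM, and the 3 genes most like each ID gene. The cell type markers given with values, ID2-AS1, HNRNPUL1 and the entries near ID3 were named after their values were seen. The value of 1 marker of another cell type is not reported here. Alternatives were size factors by relative log expression, library totals, DESeq2 1.42.0, a filter on summed counts, only 2 groups, a replicate block, numbered copies added, and each library left out.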

Additional observations from a re-analysis of the deposited data

Results flagged for a closer look

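PC and TC, each set against the same CC libraries, differed in a direct edgeR test for 4 members and for ID3_1. The log2 difference of PC from TC was 1.17 for ID2 (adjusted p 1.2e-05), -0.37 for ID4 (adjusted p 0.014), 0.50 for SMAD6 (adjusted p 0.0321), 0.51 for BAMBI (adjusted p 0.0246) and 1.47 for ID3_1 (adjusted p 0.00843). In each of them the 3 PC libraries did not overlap the 3 TC libraries, and the same held for ID1, which was not called (adjusted p 0.132). How many of all genes did so was not counted, so the lack of overlap adds nothing to the calls. ID2 and ID3_1 were called in every alternative that was run for them (adjusted p up to 0.000404 and 0.0412). HNRNPR_1, a numbered entry named for a gene 214 kb from ID3, also had higher levels in PC than in TC. No test of HNRNPR_1 is given here. ID4, SMAD6 and BAMBI each lost the call when single libraries were left out (adjusted p up to 0.0691, 0.113 and 0.0841).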

How the results depend on the processing

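No direction was reversed for a called member. The counts of members higher in TC, lower in TC and higher in PC than in CC stayed within 1.5 times of 6, 2 and 6 in all 19 alternatives. Members lower in PC than in CC (2) were 0 to 2 with 1 library left out. Members higher in RC than in CC (1) were 2 with library totals, 2 with DESeq2 and 2 with the summed-count filter, where TGFBI was called as well, and 1 to 3 with 1 library left out. Members lower in RC (0) were 1 with the ID3 copies added, also beyond 1.5-fold (1), and 0 to 1 with 1 library left out. Between PC and TC, members higher (3) were 1 to 4 and members lower (1) were 0 to 1 with 1 library left out, and pathway genes lower (9) were 6 to 14, the latter without CC replicate 3. Members higher in RC than in PC (1) were 2 with only the 2 groups fitted, where SMAD7 was called, and 0 to 1 with 1 library left out. Members lower in TC beyond 1.5-fold (1) were 2 with library totals, 0 with DESeq2 and a 1.5-fold threshold, and 0 to 2 with 1 library left out. The causes of these changes were not tested. TGFB1 was called lower in RC than in CC without RC replicate 1 (log2 fold change -0.29, adjusted p 0.0433). Counts were too few to judge ID3 in all groups and TGFB2 in CC and RC, where no library exceeded 3 counts. For ID3, the separate entry ID3_1 held 4175 counts, and its locus is not given in the sources used here.

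The replicate numbers are shared across groups, but nothing in the labels says what they mark. Deviations from the group means had a correlation over 0.1 in 2 of 18 same-number pairs, and the main fit did not pair the libraries. On the mean correlation per number, 9 of 12 libraries were closest to their own number. Between TC and PC, the same-number correlations were 0.202, 0.0641 and 0.181, while the highest of the 36 other-number pairs was 0.0591. A pairing of TC with PC can therefore not be excluded, and the results of PC against TC come from an unpaired fit. With a replicate block, members lower in TC beyond 1.5-fold were 2, and ID3_1 in PC against CC had a log2 fold change of 0.81 (adjusted p 0.066).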

Other observations

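Several ligands outside the members moved between the groups, and these were chosen after their values were seen. TGFB3, the third TGF-beta ligand, had 12.9 ± 1.33 CPM in CC, 31.0 ± 3.58 in TC, 56.3 ± 3.42 in PC and 13.6 ± 0.910 in RC (SD, n = 3). It rose 2.40-fold in TC and 4.36-fold in PC (adjusted p 3.9e-07 and 5.0e-09, edgeR). BMP6 rose 2.27-fold in TC, from 12.5 ± 1.26 to 28.4 ± 9.48 CPM (adjusted p 0.00036), and 1.51-fold in PC (adjusted p 0.0253). BMP2 was low throughout, at 0.380 ± 0.202 CPM in CC, 0.142 ± 0.0555 in TC, 1.01 ± 0.0632 in PC and 0.204 ± 0.0366 in RC. It was called lower in TC (log2 fold change -1.38, adjusted p 0.0209) although libraries overlapped, and higher in PC (log2 fold change 1.41, adjusted p 0.0093). BMP4 fell by 1.14 on the log2 scale in PC (adjusted p 0.0014).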
